A study of Homo sapiens with 2 samples.

Results

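The transcription factors that drive the epithelial-mesenchymal transition (EMT) were examined in TPC-1, a cell line from a human papillary thyroid carcinoma, after an siRNA against XPR1, the phosphate exporter of human cells. The 9 genes were chosen by name, with earlier results of these data known: SNAI1, SNAI2, ZEB1, ZEB2, TWIST1, TWIST2 and PRRX1, which encode factors that repress epithelial genes or promote mesenchymal ones, VIM, which encodes the mesenchymal intermediate filament vimentin, and GRHL2, which encodes an epithelial factor that opposes ZEB1. All 9 were found among the 58884 genes of the table. One group is TPC-1 cells transfected with an siRNA targeting XPR1 and the other is TPC-1 cells given a control siRNA, with 1 library each. Neither group has a replicate, so the conditions could not be tested against each other, and higher or lower describes these 2 libraries. How long the cells were kept after transfection, and which siRNA sequences were used, is not given in the sources used here.

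Values are TPM, each gene's length-corrected share of the transcripts of its library. Read numbers recovered from the TPM values gave 15153206 reads in the XPR1 siRNA library and 15777865 in the control siRNA library, and these gave the 95% intervals below. The intervals cover counting error only. XPR1 itself had 5.31 TPM after XPR1 siRNA, against 39.2 TPM after control siRNA, which left 13.5% of the control level (11.6% to 15.7%). In the check of cell identity, the thyroid lineage factor PAX8 had 408.6 TPM after XPR1 siRNA and 588.1 TPM after control siRNA, while NKX2-1, TSHR and SLC5A5 were at 0 in both. No leukocyte marker was above 0.598 TPM in either library. Of 8 fibroblast markers, 1 had a mean of at least 1 TPM, COL1A1, with 6.67 TPM after XPR1 siRNA and 1.04 TPM after control siRNA, and DCN and FAP were at 0 in both. That list held 8.18 TPM in sum after XPR1 siRNA and 1.68 TPM after control siRNA. The list of 6 endothelial markers held 2.92 TPM after XPR1 siRNA and 6.93 TPM after control siRNA. Whether these levels have a part in the results below was not tested. In bulk RNA, fewer cells of a type and less RNA per cell cannot be told apart.

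In EMT, epithelial cells loosen their junctions, lose apical-basal polarity and gain motility. SNAI1 and SNAI2 are zinc finger repressors, ZEB1 and ZEB2 combine zinc finger clusters with a homeodomain, and TWIST1 and TWIST2 are basic helix-loop-helix factors. SNAIL and ZEB proteins bind E-boxes in promoters such as that of CDH1, the E-cadherin gene, and recruit corepressors there. ZEB factors and the microRNAs of the miR-200 family repress each other, and carcinoma cells can occupy hybrid states in which factors of both kinds are present. EMT factors have been studied in thyroid carcinoma for their link with dedifferentiation and invasion.

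The factors did not move together. SNAI1 and TWIST1 were higher after XPR1 siRNA, ZEB2, ZEB1 and SNAI2 were lower, and TWIST2 and VIM lay close to their control levels. PRRX1 and GRHL2 were at 0 TPM in both libraries. Differences were taken as log2(TPM + 1), a scale on which low genes appear closer together than their ratio, and a gene was compared where its mean over both libraries reached 1 TPM. Of the 7 members compared, 2 were at least 1.5-fold higher on that scale, beside 21.7% of all 16319 genes compared, and 3 were at least 1.5-fold lower, beside 16.6%. At 2-fold, 0 members were higher, beside 10.4% of all genes, and 1, ZEB2, was lower, beside 8.57%. The median difference of the 7 was -0.03, against 0.05 over all genes compared. In all, 38.3% of the genes compared were at least 1.5-fold apart in one direction or the other, so differences of this size were common in these libraries.

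**Figure D1:**
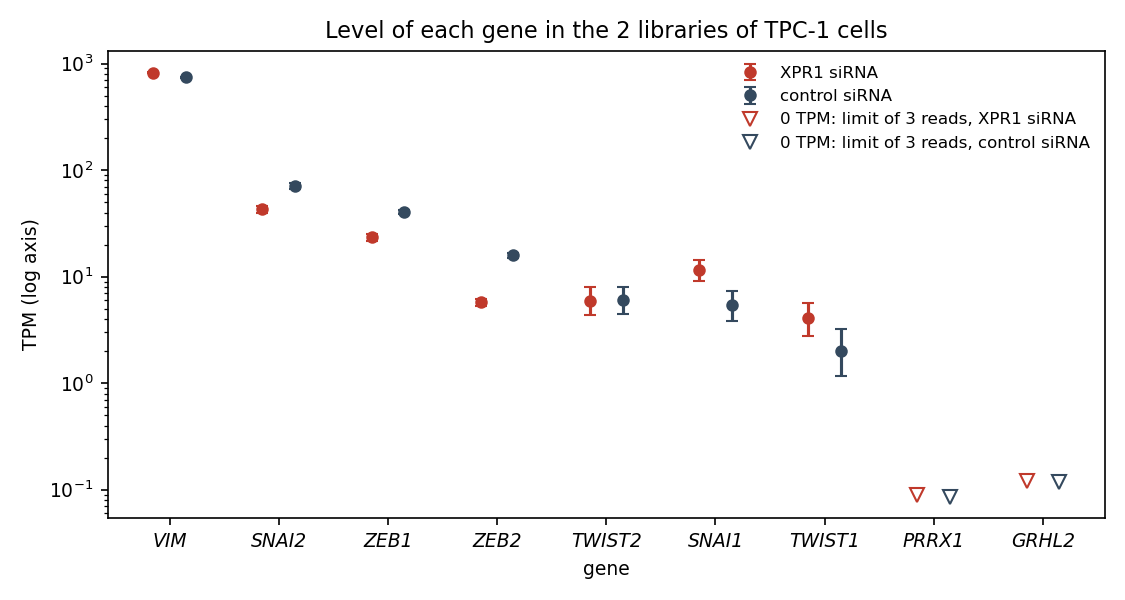
Level of each gene in TPM (log axis) in the XPR1 siRNA library (red, left of each pair) and the control siRNA library (dark blue, right), with exact 95% Poisson intervals; open triangles give the limit of 3 reads for the genes at 0 TPM. VIM stands at 822 TPM after XPR1 siRNA and 741 TPM after control siRNA, SNAI2, ZEB1 and ZEB2 are lower after XPR1 siRNA, and SNAI1 and TWIST1 are higher.

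SNAI1, encoding SNAIL, the founding repressor of the family in vertebrates, had 11.6 TPM after XPR1 siRNA (9.16 to 14.4), against 5.42 TPM after control siRNA (3.85 to 7.41). The values rest on 80 reads after XPR1 siRNA and 39 after control siRNA, and the intervals of the libraries do not overlap. The ratio was 2.13 (Clopper-Pearson interval 1.44 to 3.21) and the difference 0.97 on the log2(TPM + 1) scale, just under 2-fold on that scale. SNAI1 spans 49982999 to 49988886 on the plus strand of chromosome 20 (GRCh38, GENCODE 29) and has 1686 exonic bases. The difference of SNAI1 lay at percentile 89.0 of those of all genes compared. The pseudogene SNAI1P1 was at 0 TPM in both libraries.

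SNAI2, encoding SLUG, a SNAIL paralogue that binds the same E-boxes and marks neural crest and basal epithelial cells, had 42.7 TPM after XPR1 siRNA (39.3 to 46.3), against 71.0 TPM after control siRNA (66.7 to 75.5). These rest on 589 reads after XPR1 siRNA and 1018 after control siRNA. SNAI2 was therefore 1.66-fold lower (1.501 to 1.84), with a difference of -0.72, while its paralogue SNAI1 was higher. In both libraries SNAI2 was the most abundant of the 7 factors. There were 3.69 SNAI2 transcripts for each SNAI1 transcript after XPR1 siRNA and 13.1 after control siRNA, by TPM. SNAI2 spans 48917604 to 48921740 on the minus strand of chromosome 8 and has 3392 exonic bases.

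TWIST1, which encodes a basic helix-loop-helix factor of the cranial mesoderm and neural crest, had 4.07 TPM after XPR1 siRNA (2.80 to 5.72), against 2.02 TPM after control siRNA (1.18 to 3.23). With 33 reads after XPR1 siRNA and 17 after control siRNA, the level intervals overlap. The ratio of 2.02 had an interval of 1.09 to 3.86, and the difference was 0.75. Its close paralogue TWIST2 had 5.93 TPM after XPR1 siRNA (4.33 to 7.94) and 6.09 TPM after control siRNA (4.49 to 8.07), from 45 reads after XPR1 siRNA and 48 after control siRNA. The TWIST2 ratio of 0.974 had an interval of 0.634 to 1.49, so at this depth a change within those bounds was not detectable. TWIST2 outnumbered TWIST1 by 1.46 to 1 after XPR1 siRNA and by 3.02 to 1 after control siRNA. TWIST1 spans 19020991 to 19117672 on the minus strand of chromosome 7, and TWIST2 spans 238848032 to 238910543 on the plus strand of chromosome 2. PRRX1, a homeobox factor of limb and craniofacial mesenchyme on chromosome 1 (170662728 to 170739419, plus strand), was at 0 TPM in both, which allows up to 0.0896 TPM after XPR1 siRNA and 0.0862 TPM after control siRNA at 3 reads.

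Both ZEB genes were lower after XPR1 siRNA. ZEB2 had 5.73 TPM after XPR1 siRNA (5.27 to 6.22), against 15.9 TPM after control siRNA (15.1 to 16.7), from 583 reads after XPR1 siRNA and 1679 after control siRNA. ZEB2 was 2.77-fold lower (2.52 to 3.05), with a difference of -1.33 at percentile 5.62 of all genes compared. ZEB1, the paralogue most often tied to loss of E-cadherin in carcinoma, had 23.3 TPM after XPR1 siRNA (21.8 to 24.97), against 40.4 TPM after control siRNA (38.3 to 42.5), from 819 reads after XPR1 siRNA and 1474 after control siRNA. ZEB1 was 1.73-fold lower (1.59 to 1.89), with a difference of -0.77 at percentile 12.1. The level intervals of neither gene overlap between the libraries. ZEB1 was 4.07 times as abundant as ZEB2 after XPR1 siRNA and 2.54 times after control siRNA, so the balance within the pair moved towards ZEB1. ZEB1 spans 31318495 to 31529814 on the plus strand of chromosome 10 and ZEB2 spans 144364364 to 144524583 on the minus strand of chromosome 2. The library kit does not mark strand, and 366 exonic bases of ZEB1 overlap ZEB1-AS1, which had 3.73 TPM after XPR1 siRNA and 5.01 TPM after control siRNA. ZEB2-AS1, which overlaps 1299 exonic bases of ZEB2, was at 0 in both.

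The miR-200 family and miR-205 are the microRNAs best known for repressing ZEB1 and ZEB2, and their sequences are shown because the seed sets which sites they can pair with. Mature sequences are from RefSeq (GRCh38.p14), with the seed, bases 2 to 8, in capitals. The first 3 share one seed, AAUACUG, and the next 2 another, AACACUG.
hsa-miR-200b-3p: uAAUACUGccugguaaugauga
hsa-miR-200c-3p: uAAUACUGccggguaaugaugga
hsa-miR-429: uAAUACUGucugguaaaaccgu
hsa-miR-200a-3p: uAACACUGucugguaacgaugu
hsa-miR-141-3p: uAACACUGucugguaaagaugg
hsa-miR-205-5p: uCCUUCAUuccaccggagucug
The mature forms lie at chr1:1167160-1167181, chr12:6963742-6963764, chr1:1169055-1169076, chr1:1167916-1167937, chr12:6964155-6964176 and chr1:209432166-209432187, all on the plus strand. The libraries do not measure mature microRNAs. MIR200CHG, host of hsa-miR-200c-3p and hsa-miR-141-3p, was at 0 in both libraries, which allows 2.11 TPM after XPR1 siRNA and 2.03 TPM after control siRNA. MIR205HG was also at 0, with limits of 0.210 TPM after XPR1 siRNA and 0.202 TPM after control siRNA.

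The 3′ UTRs of both ZEB transcripts hold many matches to these seeds, while those of most other members hold none. One match of each kind is shown for each gene in 30 bases of the transcribed strand (GRCh38, GENCODE 29), with the 7 bases that pair with the seed in capitals.
ZEB1, site for seed AAUACUG, chr10:31527617-31527646: cattgttttatcttatCAGTATTatcactc
ZEB1, site for seed AACACUG, chr10:31528030-31528059: gcaaaatcatcagaatCAGTGTTtgtgatt
ZEB2, site for seed AAUACUG, chr2:144389046-144389075: ccgcactaccatacatCAGTATTtttatta
ZEB2, site for seed AACACUG, chr2:144389230-144389259: atgcaaaaattttgtaCAGTGTTaaggcct
The 2549-base 3′ UTR of ZEB1 held 6 matches to CAGTATT, 3 to CAGTGTT and 1 to ATGAAGG, the miR-205 match. Among 1974 UTRs within 20% of its length, its own included, 27.6% held CAGTATT at all. Those with as many were 0.0507%, which is ZEB1 alone. The 5370-base 3′ UTR of ZEB2 held 5 CAGTATT, 4 CAGTGTT and no ATGAAGG. Of 855 UTRs of like length, its own included, 0.117% held as many CAGTATT, which is ZEB2 alone. SNAI2 had 1 CAGTATT and GRHL2 had 1 CAGTGTT. SNAI1, TWIST1, TWIST2, PRRX1 and VIM had 0 matches to any of the 3. Of UTRs of like length, 8.87% held CAGTATT for SNAI1, 7.39% for TWIST1, 7.98% for TWIST2, 34.8% for PRRX1 and 2.23% for VIM. Most UTRs of these lengths thus hold no CAGTATT either. A match describes the letters and is not a measured site.

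**Figure D2:**
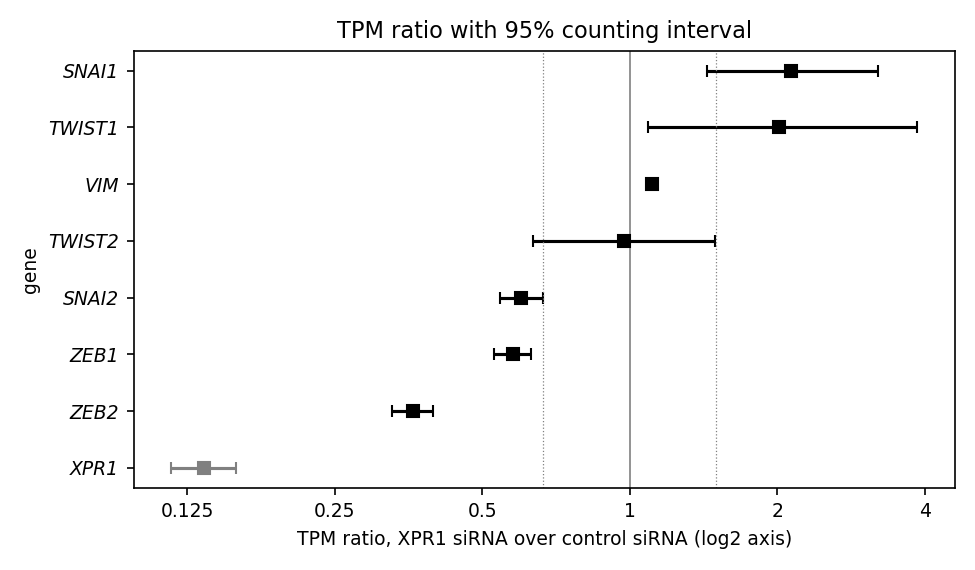
Ratio of TPM, XPR1 siRNA over control siRNA (log2 axis), with 95% Clopper-Pearson intervals from the recovered reads; XPR1 is in grey, the solid line marks equal levels and the dotted lines 1.5-fold. SNAI1 (2.13) and TWIST1 (2.02) lie right of the line, TWIST2 (0.974) and VIM (1.11) near it, and SNAI2, ZEB1 and ZEB2 left of it.

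VIM encodes vimentin, the intermediate filament of mesenchymal cells and of many carcinoma cells in culture. It had 822 TPM after XPR1 siRNA (809 to 834), from 17264 reads, and 741 TPM after control siRNA (730 to 753), from 16192 reads. The ratio of 1.11 (1.08 to 1.13) is outside counting error but is a difference of 0.15, at percentile 56.0 of all genes compared. VIM was the 101st most abundant gene after XPR1 siRNA and the 124th after control siRNA. By TPM, VIM exceeded the summed simple keratins KRT7, KRT8, KRT18 and KRT19 by 6.07 to 1 after XPR1 siRNA and 3.76 to 1 after control siRNA. The keratin sum was 135.4 TPM after XPR1 siRNA and 197.1 TPM after control siRNA. KRT8 and KRT18 have many processed copies in the genome, so their reads are uncertain. VIM spans 17228259 to 17237593 on the plus strand of chromosome 10, and its exons share 641 bases with VIM-AS1, at 1.85 TPM after XPR1 siRNA and 2.97 TPM after control siRNA.

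GRHL2, a grainyhead factor that maintains epithelial junction genes and represses ZEB1, was at 0 TPM in both libraries. A count of 0 allows up to 0.122 TPM after XPR1 siRNA and 0.117 TPM after control siRNA. GRHL2 spans 101492432 to 101669726 on the plus strand of chromosome 8, with 6060 exonic bases. High vimentin, ZEB1 and SNAI2 beside GRHL2 at 0 were thus found in both libraries.

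**Figure D3:**
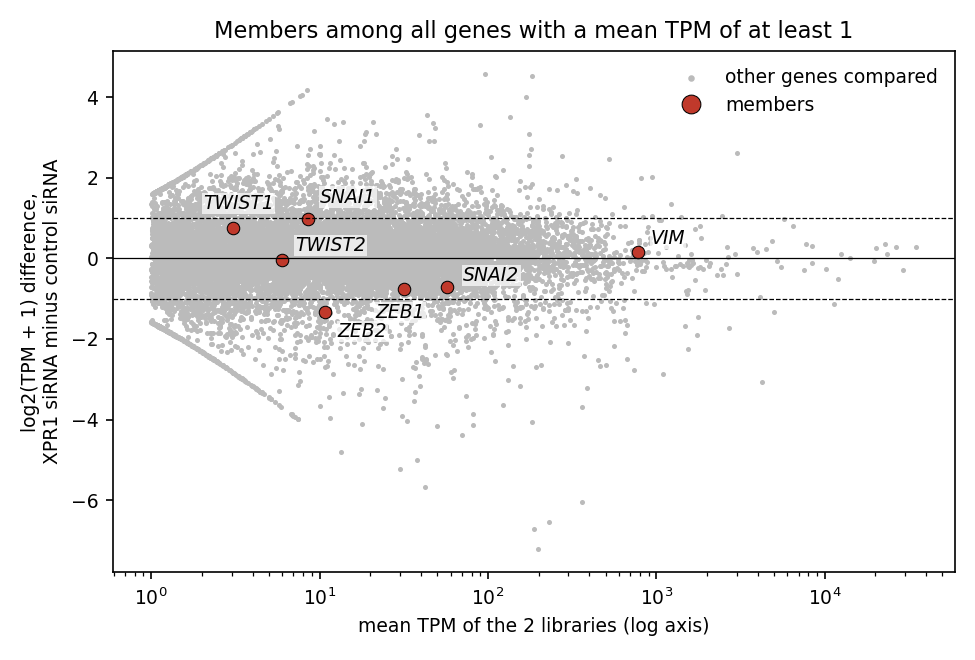
The log2(TPM + 1) difference, XPR1 siRNA minus control siRNA, against mean TPM of the 2 libraries (log axis) for all 16319 genes compared (grey), with the 7 members compared in red; dashed lines mark 2-fold. ZEB2 at -1.33 is the member outside the dashed lines, and SNAI1 at 0.97 is just inside.

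The order of the levels differed between the libraries below the first 3 places. After XPR1 siRNA it was VIM, SNAI2, ZEB1 and SNAI1, and then TWIST2, ZEB2 and TWIST1, whose level intervals overlap. After control siRNA it was VIM, SNAI2, ZEB1 and ZEB2, and then TWIST2 and SNAI1, whose intervals overlap, with TWIST1 last of those above 0. ZEB2 thus stood clearly above SNAI1 after control siRNA and below it after XPR1 siRNA.

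The summed level of the 7 factors was 93.3 TPM after XPR1 siRNA, against 140.8 TPM after control siRNA, a ratio of 0.663. SNAI2, ZEB1 and ZEB2 together had 71.7 TPM after XPR1 siRNA and 127.3 TPM after control siRNA. SNAI1 and TWIST1 together had 15.6 TPM after XPR1 siRNA and 7.44 TPM after control siRNA. As a share of the sum, SNAI1 held 12.4% after XPR1 siRNA and 3.85% after control siRNA, and ZEB2 held 6.14% after XPR1 siRNA and 11.3% after control siRNA. SNAI2 kept the biggest share, 45.8% after XPR1 siRNA and 50.4% after control siRNA. The groups of factors summed here were formed after their values were seen, so the sums are descriptions.

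**Figure D4:**
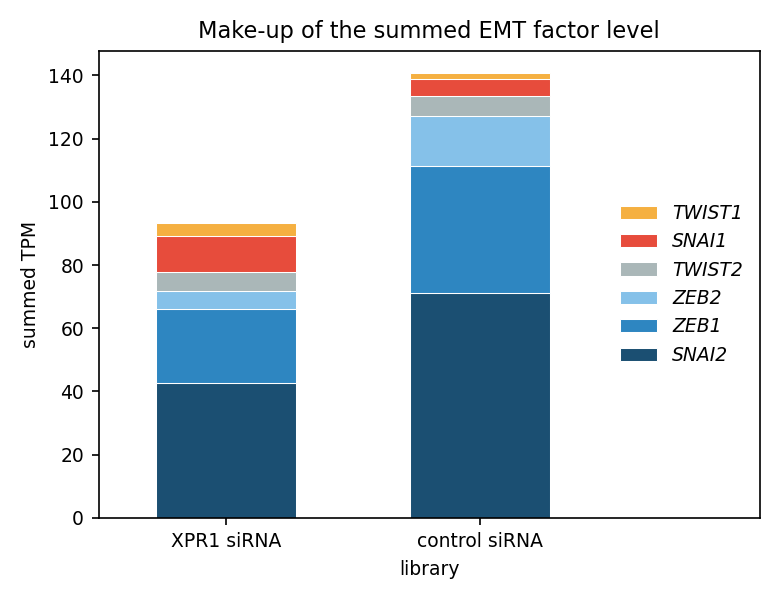
Summed TPM of the EMT factors in the XPR1 siRNA library (left) and the control siRNA library (right), stacked by gene; PRRX1 is at 0. The total is 93.3 TPM after XPR1 siRNA and 140.8 TPM after control siRNA, with a larger SNAI1 block (red) and smaller ZEB2, ZEB1 and SNAI2 blocks (blues) after XPR1 siRNA.

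Epithelial genes of the kind that these factors repress showed no single direction. Of 30 such genes, 16 were compared, of which 7 were at least 1.5-fold higher, beside 21.7% of all genes, and 2 lower, beside 16.6%, with a median difference of 0.36 against 0.05 over all genes. CDH1, the classic target of SNAIL and ZEB repressors, was near 0 in both libraries, with 1 read after XPR1 siRNA and 3 after control siRNA, and EPCAM and the splicing factor ESRP1 were at 0 in both. AP1M2, a subunit of the epithelial clathrin adaptor, had 41.1 TPM after XPR1 siRNA against 12.5 TPM after control siRNA, a ratio of 3.28 (2.66 to 4.07). The polarity gene CRB3 had 3.39 TPM after XPR1 siRNA and 0.592 TPM after control siRNA, a ratio of 5.72 (1.94 to 22.8) that rests on 22 reads after XPR1 siRNA and 4 after control siRNA. The next genes had few reads in the control siRNA library. Cingulin, CGN, at the tight junction, had 2.42 TPM after XPR1 siRNA and 0.179 TPM after control siRNA, from 65 reads after XPR1 siRNA and 5 after control siRNA. CDS1, a lipid synthesis enzyme, had 3.49 TPM after XPR1 siRNA and 0.0550 TPM after control siRNA, from 61 reads after XPR1 siRNA and 1 after control siRNA. The lower genes were the simple keratin KRT7 and the tight junction claudin CLDN1. KRT7 had 3.39 TPM after XPR1 siRNA and 11.1 TPM after control siRNA. CLDN1 had 1126 TPM after XPR1 siRNA and 1955 TPM after control siRNA. The list thus included junction genes in both directions. With a floor of 5 TPM, 2 were higher and 2 lower and the median was -0.06. With a pseudocount of 5, 3 were higher and 2 lower, so most of the higher genes were low ones. TJP3, with 2.30 TPM after XPR1 siRNA and 0.717 TPM after control siRNA, was also higher. CDS1, CGN, CRB3 and TJP3 were under 1 TPM after control siRNA. They passed the floor only through the XPR1 siRNA library, so the filter itself favoured a higher direction for them.

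E-boxes that SNAIL and ZEB proteins can bind were searched in RefSeq promoter windows (GRCh38.p14), 250 bases before the start and 50 after. The motif was CACCTG, with its reverse complement CAGGTG. The promoters of CRB3 and AP1M2 are shown because they held the most matches among the epithelial genes named above, which were named for their values. The E-boxes are in capitals in the 250 upstream bases.
CRB3, chr19:6464021-6464270, plus strand: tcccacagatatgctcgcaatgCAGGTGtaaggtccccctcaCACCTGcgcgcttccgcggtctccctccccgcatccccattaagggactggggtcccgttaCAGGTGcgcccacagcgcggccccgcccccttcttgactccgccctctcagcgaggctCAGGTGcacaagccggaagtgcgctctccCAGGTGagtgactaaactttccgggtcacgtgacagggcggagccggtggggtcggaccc
AP1M2, chr19:10587313-10587562, minus strand: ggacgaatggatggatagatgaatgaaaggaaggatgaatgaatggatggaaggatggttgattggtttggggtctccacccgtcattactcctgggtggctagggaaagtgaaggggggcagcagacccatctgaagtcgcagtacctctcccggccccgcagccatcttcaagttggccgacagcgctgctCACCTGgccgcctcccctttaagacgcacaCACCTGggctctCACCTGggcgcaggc
CRB3 had 5 matches, and 0.094% of all 35116 windows had at least as many. AP1M2 had 3, which 0.635% of windows reached. Over all windows, 20.6% held at least 1. Of the epithelial list, 17 genes had a window and 12 of them held a match in some window, against 24.1% of all genes with a window. Of these, 8 compared genes held a match, with 5 at least 1.5-fold higher, 0 lower and 3 within 1.5-fold. A further 3 compared genes held none, with 1 higher, 1 lower and 1 within. Over all genes compared, 21.7% were higher and 16.6% lower. Among the higher genes, CDS1, CRB3 and TJP3 with a match and CGN without passed the floor only through the XPR1 siRNA library. With so few genes and this filter the tally is a description, and a link between matches and differences was not tested. CGN, with 2.42 TPM after XPR1 siRNA and 0.179 TPM after control siRNA, had 0 matches. PATJ, with 13.0 TPM after XPR1 siRNA and 12.5 TPM after control siRNA, had 3. CLDN7, DSP, RAB25 and CLDN3 also held matches but were under the floor. A window of CLDN7 held 5, as many as CRB3, with CLDN7 at 0.0988 TPM after XPR1 siRNA and 0.0951 TPM after control siRNA. Among the members, the windows of ZEB2, TWIST2, VIM and PRRX1 held 0 and those of ZEB1, 7 in number, held 1 and 3 in the 2 windows with any. No window was searched for SNAI1, SNAI2, TWIST1 or GRHL2, nor for CDH1 of the epithelial list. A match is no measured binding.

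Other transcription factors around EMT included higher and lower genes. Of 22 factors linked with the mesenchymal state, 16 were compared, with 4 at least 1.5-fold higher, beside 21.7% of all genes, 5 lower, beside 16.6%, a median of 0.46 and a mean of -0.11. With a floor of 5 TPM the median was -0.10. With a pseudocount of 5 the higher genes were 1, beside 12.7% of all genes. ETS1 had 99.0 TPM after XPR1 siRNA against 319.8 TPM after control siRNA and was 3.23-fold lower (3.10 to 3.37). FOSL1, an AP-1 subunit linked to ZEB1 and ZEB2 expression in other cancers, had 374.9 TPM after XPR1 siRNA and 886.2 TPM after control siRNA and was 2.36-fold lower. Of the forkhead factors of this list, FOXQ1 and FOXC1 were lower and FOXC2 was at 0 in both. FOXQ1 had 10.2 TPM after XPR1 siRNA and 33.7 TPM after control siRNA. FOXC1 had 18.5 TPM after XPR1 siRNA and 55.2 TPM after control siRNA. The 4 higher factors of this list were SOX4, MSX1, RUNX2 and LEF1. SOX4 had 74.5 TPM after XPR1 siRNA and 36.0 TPM after control siRNA. RUNX2 had 35.7 TPM after XPR1 siRNA and 22.5 TPM after control siRNA. Of the epithelial factors, 9 of 17 were compared, with 3 higher, beside 21.7% of all genes, 2 lower, beside 16.6%, and a median of 0.26. GRHL1, a relative of GRHL2, had 2.82 TPM after XPR1 siRNA against 0.447 TPM after control siRNA, a ratio of 6.31 (3.63 to 11.7). GRHL1 passed the floor only through the XPR1 siRNA library. The forkhead factor FOXA1 had 2.79 TPM after XPR1 siRNA and 1.503 TPM after control siRNA. TFAP2A, a factor of surface ectoderm, had 22.2 TPM after XPR1 siRNA and 12.5 TPM after control siRNA. These were the 3 higher epithelial factors, and KLF4 and FOXA2 were the lower ones. FOXA1, with a difference of 0.598, and KLF5, with -0.560, lay near the 1.5-fold bounds. With median-of-ratios, upper-quartile or trimmed-mean scaling, 2 epithelial factors were higher and 3 lower. Of all genes, 19.8%, 19.1% and 19.2% were then higher, and 18.1%, 18.7% and 18.6% lower. KLF4, which restrains SNAI2 in epithelial cells, had 6.26 TPM after XPR1 siRNA and 28.0 TPM after control siRNA, 4.48-fold lower (3.57 to 5.67). FOXA2, an endodermal forkhead factor, had 1.89 TPM after XPR1 siRNA and 4.19 TPM after control siRNA.

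Of the mesenchymal effectors beyond VIM, 27 were compared, with 11 at least 1.5-fold higher, beside 21.7% of all genes, 5 lower, beside 16.6%, and a median of 0.46. The share of lower genes was near that of all genes. The matrix genes SPARC and VCAN and the myosin light chain MYL9 were higher. SPARC had 1522 TPM after XPR1 siRNA and 372.7 TPM after control siRNA. VCAN had 473.1 TPM after XPR1 siRNA and 80.0 TPM after control siRNA. MYL9 had 179 TPM after XPR1 siRNA and 30.8 TPM after control siRNA. Each of these 3 was more than 4-fold higher by TPM. Large differences went both ways: at 2-fold, 8 effectors were higher, beside 10.4% of all genes, and 4 lower, beside 8.57%. MMP14, among the 5 lower at 1.5-fold, had 340.2 TPM after XPR1 siRNA and 638.2 TPM after control siRNA. Fibronectin, FN1, had 5109 TPM after XPR1 siRNA and 5898 TPM after control siRNA. N-cadherin, CDH2, had 94.3 TPM after XPR1 siRNA and 65.8 TPM after control siRNA. CDH2, FN1 and VIM, the markers most used for a mesenchymal state, were thus abundant in both libraries and within 1.5-fold. Among the filament and lamina partners of vimentin, 3 of the 5 compared were higher and 0 lower, with a median of 0.84. Over all genes these shares were 21.7% and 16.6%. The higher ones were SYNM and the B-type nuclear lamins. SYNM, a filament protein that assembles with vimentin, had 6.77 TPM after XPR1 siRNA and 1.27 TPM after control siRNA. LMNB1 had 35.3 TPM after XPR1 siRNA and 17.0 TPM after control siRNA. LMNB2 had 106.2 TPM after XPR1 siRNA and 59.0 TPM after control siRNA. The cytoskeletal linker PLEC lay within 1.5-fold, with 266.3 TPM after XPR1 siRNA and 356.2 TPM after control siRNA.

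Genes for the corepressors of SNAIL and ZEB proteins were expressed in both libraries. All 17 corepressor genes were compared, with 3 at least 1.5-fold higher, beside 21.7% of all genes, 0 lower, beside 16.6%, and a median of 0.21. The share of higher genes was thus no larger than over all genes. The histone deacetylase HDAC1 had 192.8 TPM after XPR1 siRNA and 97.1 TPM after control siRNA. The histone methyltransferase EHMT2 had 19.1 TPM after XPR1 siRNA and 8.39 TPM after control siRNA. SUV39H1, which also methylates histone H3, had 10.4 TPM after XPR1 siRNA and 4.995 TPM after control siRNA. These were the 3 higher genes. EZH2, of the Polycomb complex, had 25.1 TPM after XPR1 siRNA and 17.1 TPM after control siRNA. The ZEB-bound corepressors CTBP1 and CTBP2 lay near their control levels. CTBP1 had 30.4 TPM after XPR1 siRNA and 26.5 TPM after control siRNA. CTBP2 had 23.3 TPM after XPR1 siRNA and 26.2 TPM after control siRNA. Of the TWIST partners and their ID inhibitors, 7 of 9 were compared, with 2 higher, 1 lower and a median of 0.28. Over all genes 21.7% were higher and 16.6% lower. The inhibitors ID1 and ID2 were higher after XPR1 siRNA, as TWIST1 was. ID1 had 82.9 TPM after XPR1 siRNA and 34.8 TPM after control siRNA, a ratio of 2.38 (2.00 to 2.85). ID2 had 60.0 TPM after XPR1 siRNA and 29.8 TPM after control siRNA. The lower gene was another inhibitor, ID4, with 1.72 TPM after XPR1 siRNA and 3.12 TPM after control siRNA. The E-protein TCF4 had 2.87 TPM after XPR1 siRNA and 1.66 TPM after control siRNA.

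Genes for enzymes that set the lifetime of SNAIL, TWIST and ZEB proteins lay mostly within 1.5-fold. Of 19 compared, 2 were at least 1.5-fold higher, beside 21.7% of all genes, and 0 lower, beside 16.6%. The other 17 lay between these bounds, and the median was -0.11. With median-of-ratios, upper-quartile or trimmed-mean scaling 1 was higher, beside 19.8%, 19.1% and 19.2% of all genes. With a pseudocount of 5 there were 0, beside 12.7%. The kinase GSK3B, which marks SNAIL for destruction, had 55.6 TPM after XPR1 siRNA and 60.0 TPM after control siRNA. The higher genes were a kinase and a deubiquitinase. The kinase PRKD1 had 32.1 TPM after XPR1 siRNA and 20.9 TPM after control siRNA. USP27X, a deubiquitinase that stabilises SNAIL, had 5.46 TPM after XPR1 siRNA and 2.81 TPM after control siRNA. The kinase CSNK1A1 and the ubiquitin ligase subunit FBXW11 were within 1.5-fold. CSNK1A1 had 70.7 TPM after XPR1 siRNA and 99.4 TPM after control siRNA. FBXW11 had 60.6 TPM after XPR1 siRNA and 82.9 TPM after control siRNA. RNA levels do not show protein levels, which matter for SNAIL because the protein is short-lived.

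Of the signals, receptors and pathway genes upstream of the factors, 19 were compared, with a median of -0.31. At 1.5-fold, 4 were higher, beside 21.7% of all genes, and 4 lower, beside 16.6%. Both shares lie near those of all genes. TGFB2, a ligand that induces SNAI1 and ZEB genes in many epithelia, had 38.6 TPM after XPR1 siRNA and 2.78 TPM after control siRNA, a ratio of 13.9 (10.8 to 18.5). The ligand BMP4 had 19.9 TPM after XPR1 siRNA and 5.97 TPM after control siRNA. The other higher genes were TGFBR1, a receptor, and TGFB3, a ligand. TGFBR1 had 61.0 TPM after XPR1 siRNA and 31.9 TPM after control siRNA. TGFB3 had 2.00 TPM after XPR1 siRNA and 0.868 TPM after control siRNA, and passed the floor only through the XPR1 siRNA library. TGFB1, the best known ligand of the family, was within 1.5-fold, with 57.5 TPM after XPR1 siRNA and 71.4 TPM after control siRNA. The lower genes were the related cytokines IL6 and LIF and the TGF-beta pathway genes SKIL and SMAD3. IL6 had 200.5 TPM after XPR1 siRNA and 1132 TPM after control siRNA and was 5.64-fold lower. LIF had 73.9 TPM after XPR1 siRNA and 209.8 TPM after control siRNA and was 2.84-fold lower. Both cytokines signal through STAT3. SKIL had 31.97 TPM after XPR1 siRNA and 67.4 TPM after control siRNA. The signal transducer SMAD3 had 208.7 TPM after XPR1 siRNA and 332.3 TPM after control siRNA. MIR34AHG, host of a p53-induced microRNA that represses SNAI1, had 2.38 TPM after XPR1 siRNA and 1.23 TPM after control siRNA. Of 3 genes compared from the microRNA host and antisense list, it alone was at least 1.5-fold apart, beside 38.3% of all genes. The median of the 3 was -0.35.

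**Figure D5:**
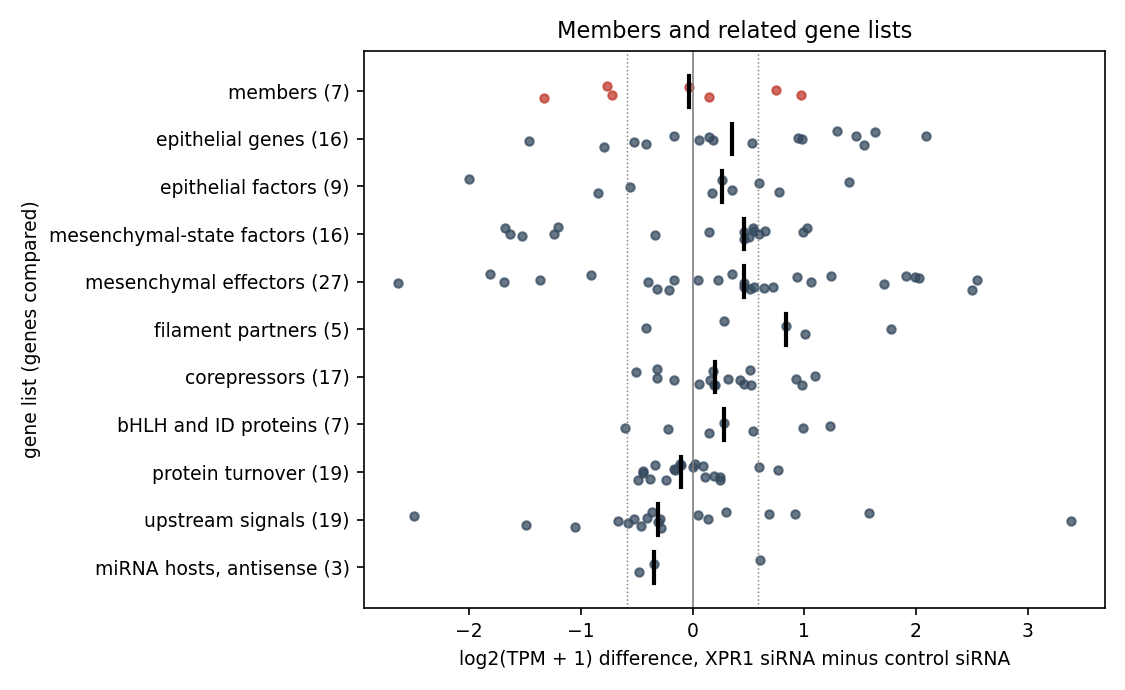
The log2(TPM + 1) difference, XPR1 siRNA minus control siRNA, of each member (red) and of each compared gene of the related lists (dark blue), with the number compared beside each name; black bars are medians and dotted lines mark 1.5-fold. Of the turnover enzymes 17 of 19 lie inside the dotted lines, while the members and most other lists spread to both sides. Over all genes compared, 38.3% lie outside those bounds.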

How the data were processed

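RNA from 1 XPR1 siRNA and 1 control siRNA library of TPC-1 was extracted with RNeasy Plus and made into TruSeq v2 libraries, per the labels' protocols, with a kit that does not mark strand. GRCh38, featureCounts 2.0.0, Trimmomatic 0.38, MultiQC and FastQC appear in the submitters' processing notes. Aligner and annotation: not given in the sources used here. As one table, the authors deposited TPM values of 58884 genes, used without further scaling. Symbols matched 58472 identifiers, and GENCODE 29 gave lengths and positions for 58611.

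TPM times exonic length, divided by a step of 246.3 (XPR1 siRNA) or 237.0 (control siRNA), came within 0.01 of a whole read in 92.4% and 92.2% of the genes at 10 reads or fewer. For SNAI1, SNAI2, TWIST1, TWIST2 and VIM, whole reads came from the 1 length within 10% that gave them to 0.001 reads in both libraries. The recovery of reads was chosen after seeing the data. Reads of other genes are approximate. Intervals cover counting error only.

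Differences are log2(TPM + 1), for genes averaging 1 TPM or more. The members and lists were chosen with earlier results of these data known. Named genes are the members, XPR1 and the 4 genes of each list with the largest difference. One gene that this rule takes is not reported here. Others (such as CDH1, EPCAM, ESRP1, KRT7, CLDN1, PATJ, FOXA1, FOXC2, FN1, CDH2, CTBP1, CTBP2, GSK3B, SKIL and SMAD3) were chosen after their values were seen. Python 3.11.15, pandas 2.3.3, numpy 2.4.6, SciPy 1.17.1 and matplotlib 3.10.9 were used, and the steps were tested on simulated data. The plan named alternatives for pseudocount, floor, scaling and mitochondrial genes, and 1 with no pseudocount was added after seeing the data.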

Additional observations from a re-analysis of the deposited data

How the results depend on the processing

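The direction of all 7 members compared and of XPR1 was the same under the 9 alternatives that gave them a value. SNAI1 differed by 0.67 to 1.09, SNAI2 by -0.79 to -0.67, ZEB1 by -0.84 to -0.68, ZEB2 by -1.47 to -0.96, TWIST1 by 0.37 to 1.01, TWIST2 by -0.10 to -0.02 and VIM by 0.07 to 0.15. Counts near a threshold moved. Members at least 2-fold higher were 1 with a pseudocount of 0.1, 1 with TPM rescaled without mitochondrial genes and 2 with no pseudocount, against 0. The shares of all genes at least 2-fold higher were 13.6%, 11.6% and 12.7% in these settings, against 10.4%. With a pseudocount of 5, 0 members were at least 2-fold lower, beside 3.25% of all genes, and XPR1 differed by -2.10. With it 1 member and 26 list genes were at least 1.5-fold higher, beside 12.7% of all genes. The main setting had 40 of 136 list genes at least 1.5-fold higher, beside 21.7% of all genes. With a floor of 5 TPM, which leaves out TWIST1, 1 member and 26 list genes were at least 1.5-fold higher, beside 19.1% of all genes. The medians of the epithelial list (-0.06) and of the mesenchymal-state factors (-0.10) changed sign at that floor. Scaling moved all differences by at most 0.08 (log2). No paired analysis was possible because there is 1 library a group, nor could any replicate be omitted. The depth limits SNAI1, TWIST1 and TWIST2 most, with 17 to 80 reads each.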
